A study of Mus musculus with 14 samples.

Results

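The genes described here drive DNA replication and cell division: 32 genes for origin licensing and the replicative helicase, the replication fork and nucleotide supply, the cyclins and their kinases, mitosis, and proliferation marks. They were taken from a list of 33 names, 1 of which ("Foxm1-like placeholder") is no gene symbol, by matching Ensembl gene IDs to symbols. All 32 were found among the 37991 gene IDs of each count table, and all 32 passed the filter on low counts in both experiments.

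The cells were J1 mouse embryonic stem cells, a line of the 129S4/SvJae background, sequenced as poly(A) RNA in 14 libraries of 7 groups with 2 libraries each. In the first experiment wild-type and Dnmt-TKO cells each received either DMSO, the solvent control, or PRT4165, labelled as an inhibitor of Polycomb repressive complex 1 (PRC1). The second experiment compared wild-type, Dnmt-TKO and Tet1-KO Dnmt-TKO cells with no treatment listed. Dnmt-TKO cells lack the 3 DNA methyltransferases Dnmt1, Dnmt3a and Dnmt3b, and the Tet1-KO Dnmt-TKO cells additionally lack Tet1, an enzyme that oxidises 5-methylcytosine. The dose and duration of PRT4165 and the number of clones behind a genotype were not stated, so the knockout and the cell line that carries it cannot be told apart. No label says that the 2 libraries of a group came from separate cultures, and p-values then measure the spread between these libraries, which may be technical.

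A replication origin is licensed in G1 phase when Cdc6 and Cdt1 help load the Mcm2-7 ring, which Cdc45 later helps to turn into the active helicase. Pcna, the sliding clamp, tethers polymerases to the fork, while Rrm1 and Rrm2 (ribonucleotide reductase), Tyms (thymidylate synthase) and Tk1 (thymidine kinase) supply deoxynucleotides. D-type cyclins with Cdk4 or Cdk6, then Ccne1 with Cdk2, drive entry into S phase, and Ccna2, Ccnb1 and Ccnb2 with Cdk1 drive entry into mitosis. Mouse embryonic stem cells are known for a short G1 phase and fast cycles.

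Many of these promoters carry short elements known from cell cycle control, and the stretches shown here were picked because they hold a match. RefSeq promoter windows of the GRCm38.p6 build, which run from 250 bases before to 50 bases after the start, were matched for 27 of the 32 genes. An E2F element was searched on both strands as TTTGGCGC, TTTGCCGC, TTTCGCGC or TTTCCCGC, and 2.26% of all 32851 windows held it. It was present in 8 of the 27, namely 6 of 8 licensing and helicase genes (Mcm3, Mcm5, Mcm6, Mcm7, Cdc6 and Cdt1) plus Cdk1 and Cdk2, and in 0 of 5 fork and nucleotide genes and 0 of 6 mitosis genes. The CHR element, a site known from genes of G2 phase and mitosis, was searched on both strands as TTTGAA or TTCGAA. It occurred in 19.2% of all windows and in 12 of the 27, namely 5 of 6 mitosis genes, 3 of 8 licensing and helicase genes (Cdc45, Mcm2 and Mcm7), 2 of 6 genes of cyclins and kinases (Ccnb2 and Cdk1), Mki67 and Top2a, and 0 of 5 fork and nucleotide genes. The CCAAT box (CCAAT on either strand) was in 37.4% of all windows and in 21 of the 27, spread over every role. A gene was counted if any of its windows held a match, while the shares of all windows count each window. Mcm7 and Ccnd3 had 2 windows each, and the second of Mcm7 held neither an E2F nor a CHR match. These letter matches are descriptions of the windows, not measured binding sites. In the stretches below, all upstream of the start and written 5′ to 3′ on the gene's strand, capitals mark E2F and CHR matches. An uninterrupted run of 12 capitals in Mcm6 and in Mcm5 is a pair of overlapping E2F matches on opposite strands.
Mcm6 (chr1:128359736-128359825, minus strand): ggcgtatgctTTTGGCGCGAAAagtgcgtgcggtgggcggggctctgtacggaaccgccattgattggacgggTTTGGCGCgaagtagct
Mcm5 (chr8:75109339-75109398, plus strand): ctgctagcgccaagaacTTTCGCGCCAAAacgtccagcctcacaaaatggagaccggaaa
Cdc6 (chr11:98907991-98908050, plus strand): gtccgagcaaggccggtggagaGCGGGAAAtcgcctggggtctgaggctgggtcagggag
Cdk1 (chr10:69352913-69353052, minus strand): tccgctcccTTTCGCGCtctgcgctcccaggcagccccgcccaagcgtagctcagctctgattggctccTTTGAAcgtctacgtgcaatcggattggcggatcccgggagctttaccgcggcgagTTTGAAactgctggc
Cdc20 (chr4:118437344-118437403, minus strand): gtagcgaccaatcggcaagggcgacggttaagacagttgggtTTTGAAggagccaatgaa
Mcm6, Mcm5 and Cdc6 are licensing genes with an E2F match and Cdc20 a mitosis gene with a CHR match, and the Cdk1 stretch holds both elements. The windows of Tk1, Rrm2 and Ccnd3, genes with large changes below, held no E2F or CHR match, and Ccnd2 had no window. Any relation of these elements to the changes below was not tested.

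Library totals ranged from 23354015 to 41844823 counts. Dnmt1 was at 424 and 434 CPM (counts relative to the library total, scaled by TMM within each experiment, as are all levels below) in wild-type DMSO libraries and at 128 and 128 in Dnmt-TKO DMSO libraries. Tet1 was at 791 and 742 CPM in untreated Dnmt-TKO libraries and at 134 and 201 CPM in Tet1-KO Dnmt-TKO libraries. All 10 embryonic stem cell markers were detected in every group, with summed levels of 3838 to 8208 CPM. Of other cell types, summed fibroblast markers were at 116 to 270.5 CPM, with Dcn, Lum, Col3a1 and Postn at 0 in wild-type DMSO, and summed endoderm markers at 441 to 1733 CPM. Tests used edgeR's quasi-likelihood F-test with Benjamini-Hochberg adjustment over all genes of an experiment, and a gene is called where the adjusted p is under 0.05. Levels of different genes are not compared below unless divided by length.

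**Figure D1:**
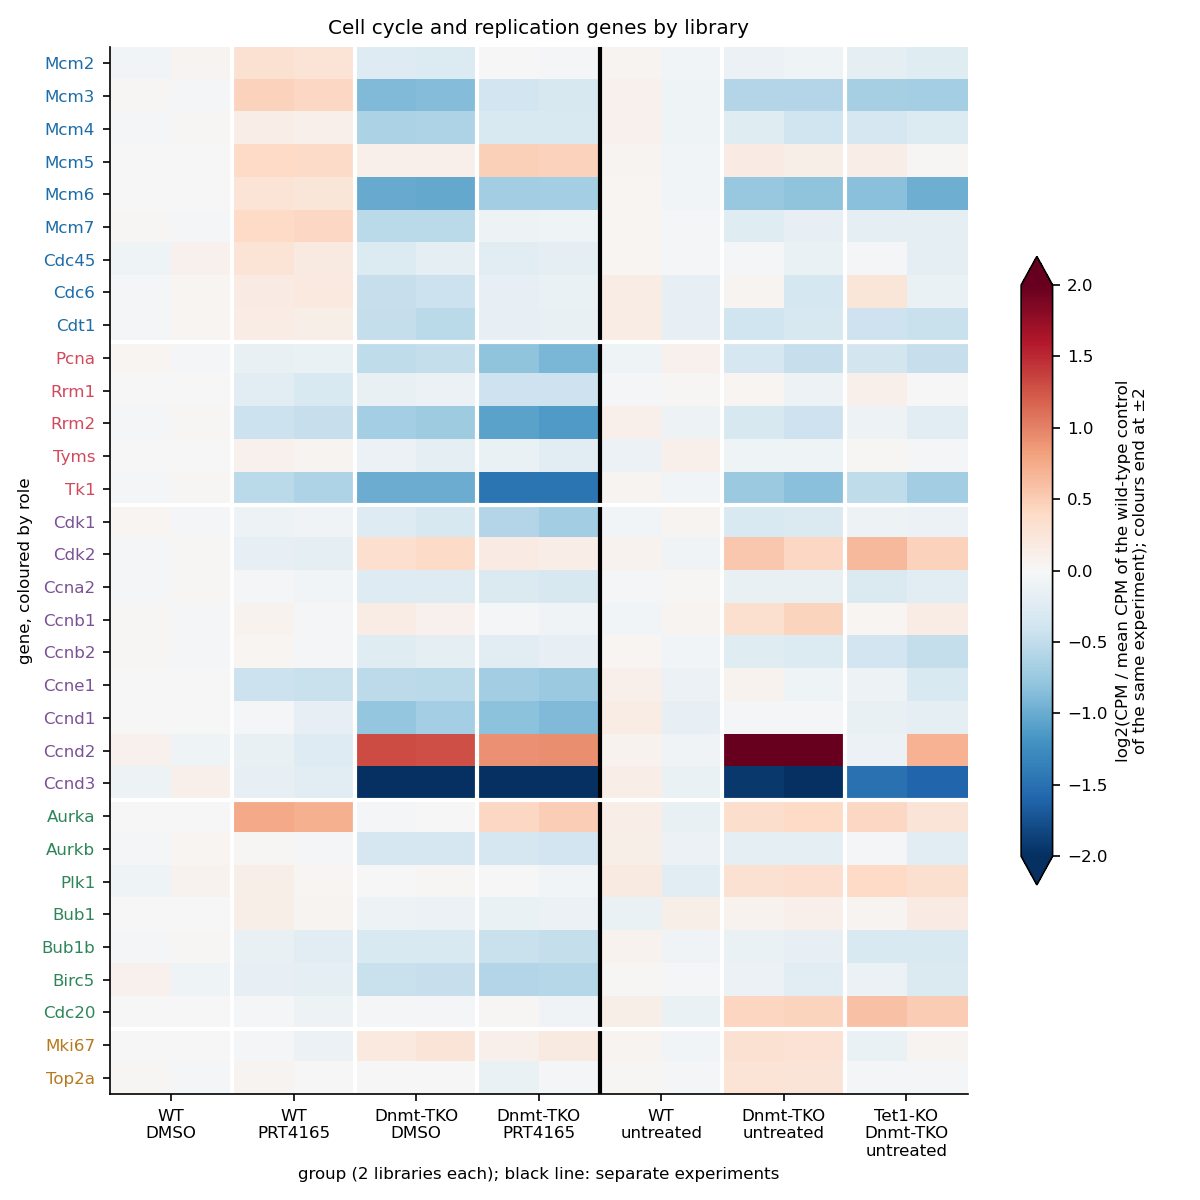
Each row is a gene, grouped by role, and each column a library, 2 per group; colour gives log2 of the library's CPM over the mean CPM of the wild-type control of the same experiment (DMSO in the first, untreated in the second). Ccnd3 is blue in all 8 Dnmt-TKO and Tet1-KO Dnmt-TKO libraries. The licensing and helicase genes at the top are redder in PRT4165 than in DMSO libraries of the same genotype, except Cdc45 in Dnmt-TKO, where the libraries overlap.

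The first comparison asks how the genes differ between cells with and without DNA methyltransferases. In DMSO, Dnmt-TKO cells had lower transcripts of most genes that load or build the replicative helicase, of the fork and nucleotide genes, and of Ccnd3, while Ccnd2 was higher. Of the 32 genes, 23 were called lower and 5 higher, in a comparison in which 69.0% of all 16711 genes tested were called, 34.2% lower and 34.8% higher. The median log2 change of the 32 was -0.28, beside 0.01 over all genes tested. Over all genes the calls were near evenly split between directions. By role, 8 of 9 licensing and helicase genes and 5 of 5 fork and nucleotide genes were lower. Of the 7 mitosis genes 4 were lower and 3 not called, and no difference between roles was tested. In bulk RNA, fewer cells in a phase and less RNA per cell cannot be told apart.

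Mcm6, a subunit of the helicase ring, was at 844 and 839 CPM in the wild-type DMSO libraries and at 419 and 412 CPM in the Dnmt-TKO DMSO libraries, a log2 change of -1.02 (SE 0.043, edgeR adjusted p = 2.84e-16). Mcm3, another subunit, went from 860.0 and 826 to 459 and 461 CPM, a log2 change of -0.87 (SE 0.045). Both fell with no overlap between groups, and both lie on chromosome 1, where the median log2 change of 895 genes was -0.40, beside 0.00 on the other autosomes. Mcm4, on another chromosome, fell from 474 and 487 to 308 and 312 CPM (log2 change -0.63, SE 0.043). Mcm7 fell from 593 and 574 to 403 and 401 CPM (log2 change -0.54, SE 0.043). Mcm2 fell by less, from 677 and 729 to 589 and 580.2 CPM (log2 change -0.27, SE 0.045). Mcm5 was called higher by a small margin, at 719 and 725 CPM in wild type and 777 and 773 CPM in Dnmt-TKO. Mcm5 lies on chromosome 8, where the median log2 change of 846 genes was 0.33. The part of these chromosome-wide shifts in the levels of single genes was not tested.

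The loading factors Cdt1 and Cdc6 were called lower as well, as was Cdc45, which acts after loading. Cdt1, which brings the Mcm ring to the origin, fell from 195 and 206 to 144 and 138 CPM (log2 change -0.51, SE 0.045), although it too lies on chromosome 8. Cdc6 fell from 106 and 110.3 to 78.5 and 80.1 CPM, and Cdc45 from 70.1 and 79.0 to 61.4 and 64.9 CPM. At the fork, Tk1, which salvages thymidine, went from 73.0 and 75.1 to 37.4 and 37.4 CPM, a log2 change of -0.98 (SE 0.054, edgeR adjusted p = 3.94e-14). Rrm2, the regulated subunit of ribonucleotide reductase, fell from 329 and 339 to 208 and 205 CPM (log2 change -0.69, SE 0.043). Its partner Rrm1 fell by 0.13 on the log2 scale, and Tyms by 0.16. Pcna fell from 534 and 506 to 364 and 373 CPM (log2 change -0.50, SE 0.046). Within the fork group the change in Tk1 and Rrm2 was thus several times that in Rrm1 and Tyms, on the log2 scale.

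The D-type cyclins, which start the cycle, showed the widest spread of all 32. Ccnd3 was at 924 and 1068 CPM in wild-type DMSO libraries and at 230.3 and 236 CPM in Dnmt-TKO DMSO libraries, a log2 change of -2.10 (SE 0.059, edgeR adjusted p = 7.09e-20). Ccnd2 went the other way, from 14.5 and 12.8 to 33.7 and 33.2 CPM, a log2 change of 1.30 (SE 0.076, edgeR adjusted p = 1.7e-13). Ccnd1 fell from 148 and 146 to 85.9 and 91.5 CPM (log2 change -0.73, SE 0.051). Divided by the union exon length of the GENCODE annotation, which overstates transcript length and is not the authors' annotation, wild-type DMSO means were 113.5 CPM per kilobase for Ccnd3, 31.2 for Ccnd1 and 1.45 for Ccnd2. In Dnmt-TKO DMSO they were 26.6, 18.8 and 3.55 CPM per kilobase. Ccnd3 and Ccnd1 therefore stayed above Ccnd2 on the per-length scale in both genotypes, and the gap between Ccnd3 and Ccnd2 narrowed.

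Of the later cyclins, Ccne1 fell from 349.9 and 353 to 245 and 242 CPM (log2 change -0.53, SE 0.043), while its kinase Cdk2 rose from 61.9 and 63.5 to 79.4 and 81.5 CPM (log2 change 0.36, SE 0.049). Cdk2 shares exon sequence on opposite strands with Pmel, a pigment cell gene, whose log2 change was 3.31. The library kit does not mark strand, so reads over the shared stretch cannot be assigned to either gene. Cdk1, the mitotic kinase, fell from 249.7 and 236 to 203 and 194 CPM. The log2 change of its cyclin partners was -0.25 for Ccna2, -0.21 for Ccnb2 and 0.12 for Ccnb1.

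Among the mitosis genes, Birc5 (survivin) fell from 186 and 164 to 128 and 127 CPM and Aurkb, its partner in the chromosomal passenger complex, from 85.4 and 90.1 to 69.3 and 69.2 CPM. The spindle checkpoint kinases Bub1b and Bub1 were called lower too, at log2 changes of -0.30 and -0.10. Aurka (a spindle pole kinase), Plk1 (polo-like kinase) and Cdc20 (an activator of the anaphase-promoting complex) were not called, with Plk1 at 156 and 174 CPM in wild type and 165 and 169 CPM in Dnmt-TKO. Mki67, which encodes the Ki-67 proliferation antigen, rose from 331 and 332 to 378 and 397 CPM. Top2a, the topoisomerase that untangles replicated chromosomes, was at 895 and 865 CPM in wild type and 877 and 876 CPM in Dnmt-TKO.

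Calls of Ccnb1, Ccnb2, Rrm1, Tyms, Cdc45, Mcm5 and Bub1 depended on a setting or on 1 library. Bub1 was not called with RLE factors in place of TMM, with DESeq2, with no filter or with the 2 groups fitted alone. Mcm5 and Ccnb1 were not called with no filter. Mcm5 lost its call without any 1 of the DMSO or wild-type PRT4165 libraries (adjusted p 0.0862 to 0.139 by edgeR), and Ccnb1 without wild-type DMSO replicate 2 or Dnmt-TKO DMSO replicate 1 (0.222 each) and without either wild-type PRT4165 library (0.055 and 0.0537). The higher calls fell from 5 to 3 without any of those 4 libraries. Bub1 lost it without Dnmt-TKO DMSO replicate 1 or 2 (0.109 and 0.194), Rrm1 without replicate 1 (0.079) and Tyms without replicate 2 (0.122). With library size in place of TMM, the median over all genes moved from 0.01 to 0.16 and that of the 32 from -0.28 to -0.13, calls of all genes were 63.5% higher in place of 50.5%, and Bub1 and Rrm1 changed sign to 0.047 and 0.017. Summed trophoblast markers went from 75.8 to 85.7 CPM in wild-type DMSO to 831 to 864 CPM in Dnmt-TKO DMSO, with Elf5, Tpbpa and Prl3d1 at 0 in wild type and 9 of the 10 called higher. Of the 10 embryonic stem cell markers 8 were lower and 2 higher (summed 6331 to 6443 CPM, then 5020 to 5050.5 CPM), of the 10 endoderm markers 7 were lower and 1 higher (968 to 981 CPM, then 846 to 879.5 CPM), and of the 8 fibroblast markers tested 3 were lower and 3 higher (229 to 236 CPM, then 161 to 162 CPM). The part of these markers in the result was not tested.

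Other replication genes were mostly lower in DMSO as well. Of 41 other genes of the replication origin and fork, 34 were called lower and 3 higher, with a median log2 change of -0.39, where 34.2% of all genes were called lower and 34.8% higher. The 3 higher calls became 1 without any 1 of the wild-type DMSO, wild-type PRT4165 or Dnmt-TKO DMSO libraries, and with DESeq2 or no filter. The strongest by p was Pola2, a subunit of the priming polymerase, at -1.15 (SE 0.047). Next was Orc2 of the origin recognition complex at -0.90 (SE 0.047). The part of the chromosome-wide shifts given above in the changes of these genes, Orc2 included, was not tested. Of 34 other mitosis genes, 13 were lower and 11 higher, with a median of 0.001, shares near those of all genes, and library-size scaling turned this to 8 lower and 20 higher. Of 25 genes of G1-S control, 14 were lower and 6 higher. Smallest by p among the lower calls was E2f2, a transcription factor that activates replication genes, which fell by 1.91 on the log2 scale. Among the higher calls it was Rb1, the retinoblastoma protein that restrains E2F factors, which rose by 1.24. Next by p were E2f4 at -0.92 and Tfdp2 at 0.60. The part of these factors in the levels of the replication genes was not tested.

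Inhibitors of cyclin-dependent kinases, measured for 6 of the 7 genes listed, changed in both directions. Cdkn2a was at 0.679 and 0.684 CPM in wild-type DMSO libraries and 11.3 and 10.8 CPM in Dnmt-TKO DMSO libraries, a log2 change of 4.02 (SE 0.183). Cdkn2b was at 0.143 and 0.155 CPM in wild type and 2.96 and 3.08 CPM in Dnmt-TKO (log2 change 4.30, SE 0.335). Both genes have an INK4 protein among their products, a type that blocks the kinases that pair with D-type cyclins. Counts per gene do not tell the products of a gene apart. Cdkn1a (p21) rose from 17.3 and 19.0 to 33.7 and 37.2 CPM and Cdkn2c from 0.464 and 0.373 to 2.32 and 1.98 CPM. Cdkn1b (p27) fell from 40.8 and 38.3 to 23.9 and 23.3 CPM and Cdkn1c (p57) from 101 and 93.3 to 77.6 and 77.2 CPM. Foxm1, a transcription factor of mitotic genes, was at 62.5 and 72.6 CPM in wild type and 53.8 and 57.4 CPM in Dnmt-TKO, and its call was lost with library-size scaling.

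The untreated cells of the second experiment repeated the genotype comparison in libraries of their own. There 10 of the 32 genes were called lower and 8 higher, with 50.2% of all 16303 genes tested called, 24.3% lower and 25.9% higher. The median log2 change of the 32 was -0.12, beside -0.004 over all genes. All 10 genes called lower untreated were also called lower in DMSO, which is 100% of the untreated and 43.5% of the DMSO calls. Of the 8 called higher, 4 (Ccnd2, Cdk2, Mki67 and Ccnb1) were called higher in DMSO as well, and none of the 32 was called in opposite directions. Opposite calls were rare over all genes too. Of the DMSO calls, 64 of 5520 higher and 86 of 5677 lower were opposite untreated. Over all genes tested in both, 84.2% of the untreated lower calls were lower in DMSO and 87.4% of the untreated higher calls were higher, the latter beside 4 of 8 among the 32. Of the DMSO lower calls, 58.1% over all genes were lower untreated, above the 43.5% among the 32. Of the DMSO higher calls, 65.7% over all genes and 80.0% among the 32 were higher untreated.

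Ccnd3 fell again, from 764 and 636 CPM in wild type to 184 and 172 CPM in Dnmt-TKO (log2 change -1.98, SE 0.114, edgeR adjusted p = 8.34e-08). Ccnd2 rose from 8.47 and 7.63 to 62.4 and 48.5 CPM (log2 change 2.78, SE 0.225, edgeR adjusted p = 1.34e-06). Ccnd1, lower in DMSO, was at 111 and 88.7 CPM in wild type and 98.1 and 97.4 CPM in Dnmt-TKO, values that overlapped. Among replication genes, Mcm6 fell from 780.4 and 732 to 449 and 432 CPM, Mcm3 from 752 and 668 to 471 and 474 CPM and Tk1 from 80.6 and 74.3 to 46.0 and 43.2 CPM, with log2 changes of -0.78, -0.59 and -0.80. Chromosome 1 was again lower, with a median log2 change of -0.46, beside -0.010 on other autosomes. Pcna, Rrm2, Mcm4 and Cdt1 were called lower as well, so 4 of 9 licensing and helicase genes and 3 of 5 fork and nucleotide genes fell.

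The mitosis genes Cdc20, Aurka and Plk1 rose in untreated Dnmt-TKO cells, and none of the 7 fell (0 at an unadjusted p under 0.05 in edgeR and 0 called by DESeq2). Cdc20 went from 256 and 216 to 319.8 and 322 CPM (log2 change 0.44, SE 0.105, edgeR adjusted p = 0.00422). Aurka went from 116 and 95.7 to 135 and 139 CPM and Plk1 from 157 and 119 to 170.4 and 174 CPM. Mki67 and Top2a rose too, Mki67 from 371 and 343 to 443 and 438 CPM and Top2a from 829 and 801 to 981 and 976 CPM. Of the 18 calls, those of Mcm3, Mcm6, Tk1, Cdk2, Ccnd2, Ccnd3 and Cdc20 held under every alternative run. Without Dnmt-TKO replicate 2 the calls fell to 4 lower and 3 higher, without Dnmt-TKO replicate 1 to 5 and 4, and without wild-type replicate 2 the higher calls fell to 5. Without wild-type replicate 2 Plk1 was at 0.13 (edgeR adjusted p = 0.276) and Aurka at 0.23 (0.0797), and without wild-type replicate 1 Cdt1 was at -0.21 (0.0798), Mcm4 at -0.24 (0.0635) and Ccnb2 at -0.22 (0.0734). Ccnb2, Plk1 and Top2a were lost at 0.0502 to 0.0609 without a Tet1-KO Dnmt-TKO library as well.

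In the wider lists, 17 of the 41 origin and fork genes were lower and 2 higher in untreated Dnmt-TKO cells, and 11 of the 34 mitosis genes were higher and 6 lower, where 24.3% of all genes were lower and 25.9% higher. The mitosis shares lie near that background. The part of chromosome-wide shifts in these lists was not tested. Without Dnmt-TKO replicate 2 these became 8 lower and 0 higher for the origin and fork genes, and 4 higher and 3 lower for the mitosis genes. Without Dnmt-TKO replicate 1 there were 0 higher origin and fork genes and 5 higher mitosis genes. E2f2 fell by 2.05 on the log2 scale. Cdkn2a rose from 0.494 and 0.574 to 15.1 and 14.98 CPM (log2 change 4.82, SE 0.190). Cdk6, a kinase that pairs with D-type cyclins, rose by 1.30 (SE 0.161). Summed trophoblast markers were at 54.2 to 60.1 CPM in untreated wild type and 146 to 157 CPM in untreated Dnmt-TKO, with 8 of the 9 tested called higher and 1 lower. Of the 10 embryonic stem cell markers 7 were lower and 2 higher (summed 7645 to 8208 CPM, then 6347 to 6373 CPM), of the 9 endoderm markers tested 6 were lower (655 to 1003 CPM, then 441 to 716 CPM), and of the 6 fibroblast markers tested 3 were lower and 1 higher (217 to 270.5 CPM, then 116 to 121 CPM). The part of these markers was not tested. Cdkn1c fell from 129 and 215 to 41.0 and 50.1 CPM and Cdkn1b from 70.8 and 80.3 to 26.3 and 35.7 CPM. Cdkn1a, higher in DMSO, was not called untreated. It was at 34.0 and 24.1 CPM in wild type and 30.5 and 31.9 CPM in Dnmt-TKO, values that overlapped.

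**Figure D2:**
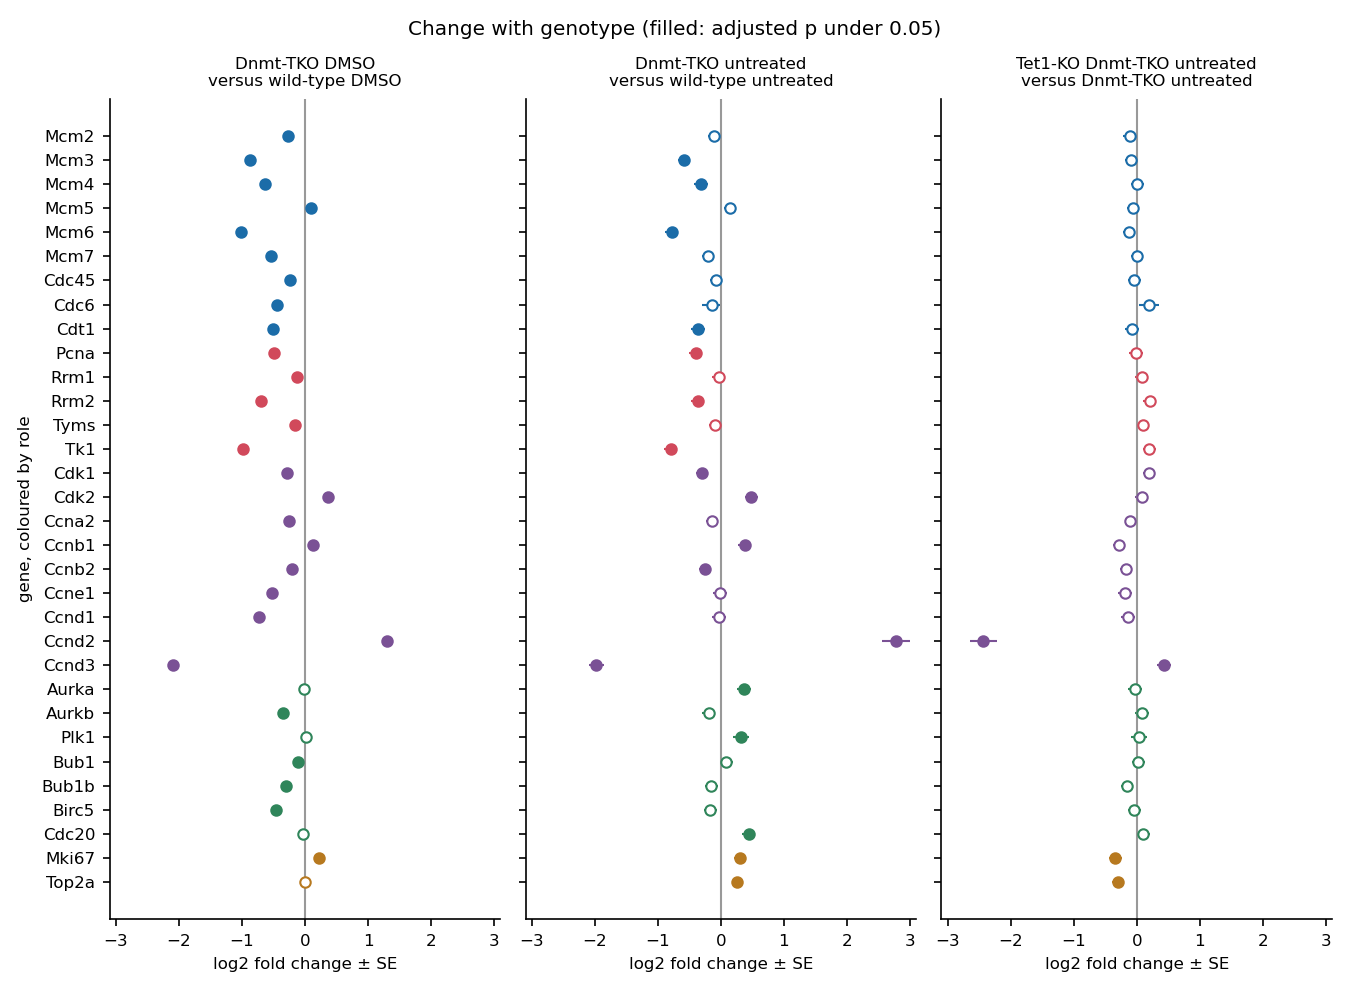
Points give the log2 fold change of each gene and bars its SE, for Dnmt-TKO against wild type in DMSO (left) and untreated (middle) and for Tet1-KO Dnmt-TKO against Dnmt-TKO (right); filled points have an adjusted p under 0.05, and colour marks the role. Ccnd3 lies at -2.10 and -1.98 in the first 2 panels, and Ccnd2 at 1.30, 2.78 and -2.44 across the 3.

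Whether the genotype change itself differed between experiments was tested in 1 fit over all 14 libraries. For 10 of the 32 genes the change was more positive untreated than in DMSO and for 0 more negative, where 12.9% of 17246 genes were called, 7.50% more positive and 5.42% more negative. At an unadjusted p under 0.05, 16 of the 32 were more positive and 0 more negative, and DESeq2 called 12 and 0. The difference in log2 change was 1.51 (SE 0.251) for Ccnd2, 0.73 (SE 0.121) for Ccnd1, 0.55 (SE 0.116) for Ccne1 and 0.50 (SE 0.105) for Cdc20, and these calls held under every alternative run. Ccne1, for example, fell in DMSO but stood at 243 and 208 CPM in untreated wild-type and 236 and 212 CPM in untreated Dnmt-TKO libraries. Mcm7, Mcm3, Mcm4, Rrm2, Aurka and Top2a were called by a smaller margin. Their calls were lost with library-size scaling, which turned the all-gene split from 58.1% to 27.1% more positive. The count of 10 became 16 without untreated wild-type replicate 1, and 5 or 6 without any 1 of the 4 DMSO libraries or untreated Dnmt-TKO replicate 1. Of the 6 inhibitors of cyclin-dependent kinases tested, 3 were called more negative untreated than in DMSO and 0 more positive. The difference in log2 change was -0.84 (SE 0.175) for Cdkn1a, -1.56 (SE 0.240) for Cdkn1c and -0.51 (SE 0.153) for Cdkn1b. Experiment and DMSO cannot be told apart here, since each experiment holds 1 of the conditions.

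The next comparison asks what PRT4165 did within each genotype. The Mcm2-7 ring and its loaders rose, while the clamp and the nucleotide enzymes other than Tyms fell. In wild type 10 of the 32 genes were called higher and 9 lower, where 37.6% of all genes were called, 19.0% higher and 18.7% lower. In Dnmt-TKO 9 were higher and 10 lower, where 39.5% of all genes were called, 19.9% higher and 19.6% lower. The median log2 changes of the 32 were 0.000 and -0.034, beside 0.012 and -0.003 over all genes tested. All 9 licensing and helicase genes rose in wild type and 8 of 9 in Dnmt-TKO, and 4 of 5 fork and nucleotide genes fell in each. The wild-type calls of Mcm4, Cdt1 and Pcna among these were fragile, as given below.

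In wild type Mcm3 rose from 860.0 and 826 CPM with DMSO to 1157 and 1127 CPM with PRT4165, a log2 change of 0.44 (SE 0.044, edgeR adjusted p = 3.55e-08). In Dnmt-TKO it rose from 459 and 461 to 649 and 678 CPM, a log2 change of 0.53 (SE 0.045, edgeR adjusted p = 1.91e-09). Mcm7 rose from 593 and 574 to 770.2 and 774 CPM in wild type and from 403 and 401 to 543 and 550.2 CPM in Dnmt-TKO. In each genotype both PRT4165 libraries of Mcm3 and of Mcm7 lay above both DMSO libraries. Mcm5 rose by 0.39 (SE 0.042) and 0.37 (SE 0.042) on the log2 scale in wild type and Dnmt-TKO, Mcm2 by 0.29 (SE 0.045) and 0.25 (SE 0.045), and Mcm6 by 0.25 (SE 0.042) and 0.33 (SE 0.043). Mcm4 rose by 0.11 (SE 0.042) and 0.32 (SE 0.043). The loaders Cdc6 and Cdt1 were in the same range, with Cdc6 at 0.18 and 0.30 and Cdt1 at 0.13 and 0.35. Cdc45, the helicase activator, rose in wild type from 70.1 and 79.0 to 89.6 and 84.4 CPM but stood at 61.4 and 64.9 CPM with DMSO and 63.8 and 64.8 CPM with PRT4165 in Dnmt-TKO. The median log2 changes of chromosomes 1 and 8 under PRT4165 ran from -0.018 to 0.028 over both genotypes.

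Tk1 fell from 73.0 and 75.1 to 51.0 and 48.3 CPM in wild type, a log2 change of -0.57 (SE 0.052, edgeR adjusted p = 6.31e-09). In Dnmt-TKO it fell from 37.4 and 37.4 to 26.8 and 27.0 CPM, a log2 change of -0.48 (SE 0.058, edgeR adjusted p = 5.42e-07). Rrm2 fell from 329 and 339 to 249 and 243 CPM and from 208 and 205 to 158 and 152 CPM. Rrm1, the catalytic partner, moved with it, at log2 changes of -0.26 (SE 0.043) and -0.28 (SE 0.043). Pcna fell by 0.14 in wild type and by 0.36 in Dnmt-TKO on the log2 scale. Tyms was not called in either genotype, with 88.6 and 89.5 CPM in wild-type DMSO and 94.4 and 92.5 CPM in wild-type PRT4165 libraries. Against wild-type DMSO cells, Dnmt-TKO cells with PRT4165 had Tk1 at -1.46 (SE 0.055) and Rrm2 at -1.10 (SE 0.044) on the log2 scale, while Mcm2 and Mcm7 stood at -0.016 and -0.094. In that comparison 22 of the 32 genes were lower and 5 higher, where 76.2% of all genes were called, 36.7% lower and 39.6% higher. Of these 27 calls 18 held under every alternative run. The lower calls of Cdc45, Cdc6, Cdt1, Tyms, Bub1 and Ccnb2 were lost with library-size scaling, with Cdc6 at -0.01 and Cdt1 at -0.02. The higher call of Cdk2 was lost with no filter. That of Mki67, at 0.143, was lost without Dnmt-TKO PRT4165 replicate 2, at 0.10. Mcm7 lost its call there without wild-type DMSO replicate 1 (edgeR adjusted p = 0.0828) or either PRT4165 library of Dnmt-TKO (0.0689 and 0.0587). It turned to 0.045 with library-size scaling, which moved the split of all calls from 51.9% to 61.5% higher.

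**Figure D3:**
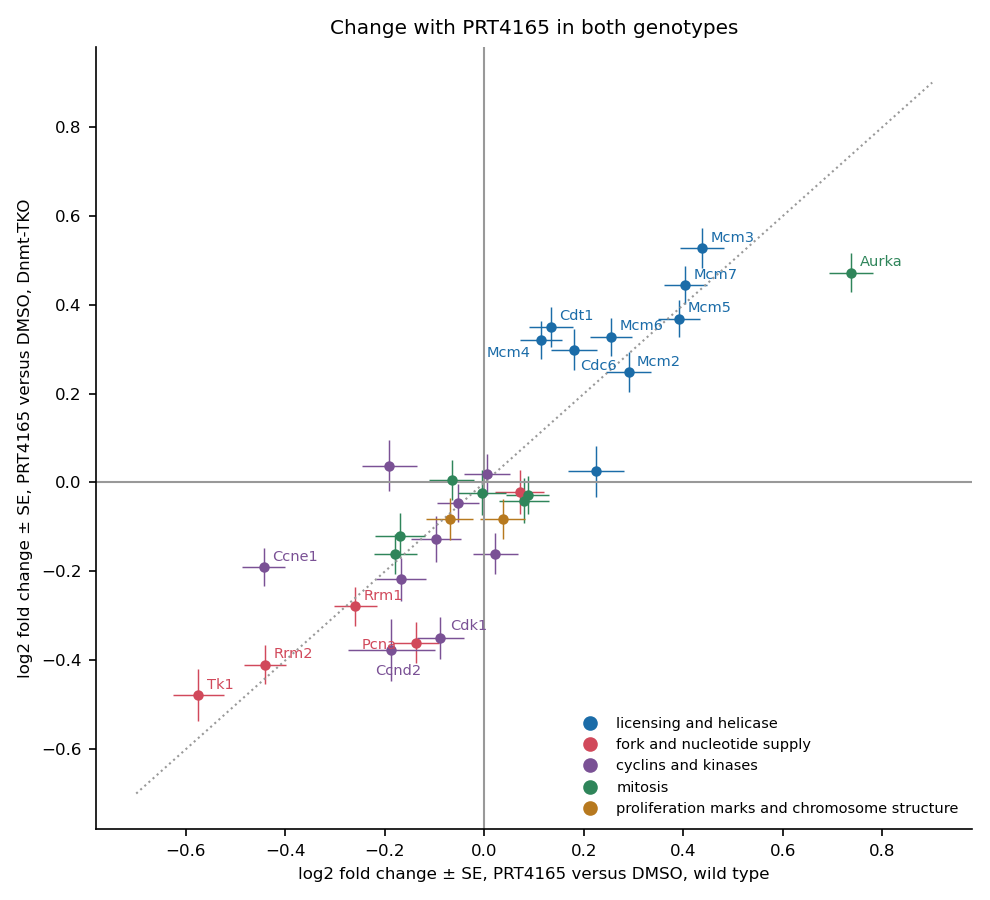
Each point is 1 of the 32 genes, with its log2 fold change under PRT4165 in wild type (x) and in Dnmt-TKO (y), bars of 1 SE and the role as colour; the dotted line marks equal change. The Mcm genes lie in the upper right, between 0.11 and 0.53, and Tk1, Rrm2 and Rrm1 in the lower left, between -0.26 and -0.57.

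The comparisons in wild type and in Dnmt-TKO share no library. Of the genes called higher, 9 were shared, which is 90.0% of the wild-type and 100% of the Dnmt-TKO calls, and of those called lower 7 were shared (77.8% and 70.0%). Over all genes tested, 64.3% of the wild-type higher calls and 66.7% of the lower calls were called in the same direction in Dnmt-TKO. Of the Dnmt-TKO calls, 61.3% of the higher and 63.6% of the lower were called alike in wild type. None of the 32 was called in opposite directions, which was rare over all genes too. Of the wild-type calls, 41 of 3171 higher and 44 of 3120 lower were opposite in Dnmt-TKO. Outside replication, Aurka rose from 149 and 149.8 to 252 and 245 CPM in wild type (log2 change 0.74, SE 0.044, edgeR adjusted p = 4.35e-12) and from 147 and 148 to 199 and 209 CPM in Dnmt-TKO. It was the sole mitosis gene called higher. Bub1b fell in both genotypes, by 0.18 and 0.16 on the log2 scale. Ccne1 fell from 349.9 and 353 to 259 and 257 CPM in wild type and from 245 and 242 to 218 and 209 CPM in Dnmt-TKO. Cdk1 fell in Dnmt-TKO, from 203 and 194 to 162 and 149.6 CPM, and in wild type was at 249.7 and 236 CPM with DMSO and 226 and 230.4 CPM with PRT4165. Ccnd2 fell in Dnmt-TKO from 33.7 and 33.2 to 25.7 and 25.8 CPM, still above the wild-type DMSO libraries.

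A test of the difference between genotypes in the response to PRT4165 called 3 of the 32 genes, 1 more positive and 2 more negative in Dnmt-TKO, where 3.89% of all genes were called, 1.77% more positive and 2.12% more negative. The difference in log2 change was 0.25 (SE 0.060, edgeR adjusted p = 0.017) for Ccne1, -0.27 (SE 0.062, edgeR adjusted p = 0.0149) for Aurka and -0.26 (SE 0.067, edgeR adjusted p = 0.028) for Cdk1. Each call was lost without 1 of 4 or 5 libraries, at adjusted p of 0.0659 to 0.131 for Ccne1, 0.0558 to 0.066 for Aurka and 0.0524 to 0.156 for Cdk1. Those libraries were wild-type PRT4165 replicate 2, Dnmt-TKO DMSO replicates 1 and 2 and Dnmt-TKO PRT4165 replicate 1 for Ccne1. They were wild-type PRT4165 replicate 1, Dnmt-TKO DMSO replicates 1 and 2 and Dnmt-TKO PRT4165 replicate 1 for Aurka. For Cdk1 they were both wild-type PRT4165, both Dnmt-TKO DMSO and the second Dnmt-TKO PRT4165 library.

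Of the calls within wild type, 6 were fragile. Cdt1 and Mcm4 were not called with no filter on low counts, nor was Mcm4 with the 2 groups fitted alone. Ccnd3 lost its call without wild-type DMSO replicate 2 (log2 change -0.08, edgeR adjusted p = 0.253) or PRT4165 replicate 2 (0.112), and Birc5 without DMSO replicate 1 (-0.07, 0.268) or PRT4165 replicate 2 (0.0765). Pcna lost it without DMSO replicate 1 (0.161) or either PRT4165 library (0.115 and 0.0778), and Cdk2 without DMSO replicate 2 (0.0579) or either PRT4165 library (0.0563 and 0.0734). Cdt1 lost it without DMSO replicate 1 (0.0939) or PRT4165 replicate 1 (0.0836), and Mcm4 without either of those (0.0827 and 0.128) or without either Dnmt-TKO DMSO library (0.0839 and 0.0819). Without PRT4165 replicate 2 the lower calls in wild type fell from 9 to 5. Within Dnmt-TKO, Ccnb1 alone lost its call, without DMSO replicate 1 (0.0834). Summed embryonic stem cell markers went from 6331 to 6443 CPM with DMSO to 5357 to 5583 CPM with PRT4165 in wild type, where 8 of 10 were called lower, and from 5020 to 5050.5 CPM to 3838 to 4028 CPM in Dnmt-TKO, where 7 of 10 were. Summed trophoblast markers went from 75.8 to 85.7 CPM to 103 to 111 CPM in wild type (4 of 10 called higher) and from 831 to 864 CPM to 1159 to 1163 CPM in Dnmt-TKO (6 higher and 1 lower). Endoderm markers went from 968 to 981 CPM to 1169 to 1213 CPM in wild type (5 of 10 higher, 1 lower) and from 846 to 879.5 CPM to 773 to 778 CPM in Dnmt-TKO (1 higher, 4 lower). Fibroblast markers went from 229 to 236 CPM to 188 to 194 CPM in wild type (2 of 8 tested lower) and from 161 to 162 CPM to 134 to 146 CPM in Dnmt-TKO (1 higher, 2 lower). The part of these markers in the result was not tested.

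Of the 41 other origin and fork genes, 13 rose and 12 fell with PRT4165 in wild type, and 7 rose and 12 fell in Dnmt-TKO. Over all genes 19.0% were called higher and 18.7% lower in wild type and 19.9% and 19.6% in Dnmt-TKO, so the higher share of the list in Dnmt-TKO was under the background. Mcm10, which helps to activate the loaded helicase, rose by 0.77 (SE 0.043) in wild type and 0.99 (SE 0.044) in Dnmt-TKO. Prim1, the catalytic subunit of primase, fell by 0.35 and 0.49 on the log2 scale. In the G1-S list, Wee1, a kinase that holds Cdk1 inactive, rose by 0.73 (SE 0.055) and 0.74 (SE 0.054). Cdkn1a rose from 17.3 and 19.0 to 23.8 and 25.6 CPM in wild type and from 33.7 and 37.2 to 42.2 and 45.4 CPM in Dnmt-TKO. Without Dnmt-TKO DMSO replicate 2 or PRT4165 replicate 1, 4 of the origin and fork genes were called higher in Dnmt-TKO. Cdkn2a was at 11.3 and 10.8 CPM with DMSO and 11.7 and 9.57 CPM with PRT4165 in Dnmt-TKO, with overlapping libraries.

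The last comparison asks what the loss of Tet1 adds in cells without the DNA methyltransferases. Of the 4 calls, that of Ccnd2 held under every alternative run. Ccnd2 stood at 62.4 and 48.5 CPM in untreated Dnmt-TKO libraries and at 7.44 and 13.0 CPM in Tet1-KO Dnmt-TKO libraries, a log2 change of -2.44 (SE 0.215, edgeR adjusted p = 2.61e-05). Both Tet1-KO Dnmt-TKO libraries lay below both Dnmt-TKO libraries, and the lower of them was below both wild-type libraries, which were at 8.47 and 7.63 CPM. Against wild type the log2 change of Ccnd2 was 0.34 (SE 0.227, edgeR adjusted p = 0.231), which misses the threshold and does not show that the levels are alike. Of the 32 genes, 1 was called higher and 3 lower, where 22.0% of all genes were called, 11.6% higher and 10.4% lower, so the share of the 32 was under the background. With the replicate number as a block Ccnb1 was called lower too, which made 4. With library-size scaling 40.6% of all calls were higher in place of 52.9%.

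Ccnd3 rose from 184 and 172 to 247 and 232 CPM (log2 change 0.43, SE 0.111), still below both wild-type libraries. Mki67 fell from 443 and 438 to 327 and 370.0 CPM (log2 change -0.34, SE 0.101) and Top2a from 981 and 976 to 800.0 and 797 CPM (log2 change -0.29, SE 0.094). These 3 calls were lost without Dnmt-TKO replicate 1 or 2 or Tet1-KO Dnmt-TKO replicate 1, at edgeR adjusted p of 0.0793, 0.166 and 0.0923 for Ccnd3, 0.21, 0.183 and 0.23 for Mki67 and 0.273, 0.253 and 0.153 for Top2a. Top2a lost it without Tet1-KO Dnmt-TKO replicate 2 too (0.153). None of the 9 licensing and helicase genes and none of the 5 fork and nucleotide genes was called by edgeR or by DESeq2, and 0 of these 14 had an unadjusted p under 0.05 in edgeR. Mcm6, for example, was at 449 and 432 CPM in Dnmt-TKO and 424 and 386 CPM in Tet1-KO Dnmt-TKO libraries.

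Against wild type, Tet1-KO Dnmt-TKO cells had 10 of the 32 genes lower and 4 higher, where 50.7% of all genes were called, 24.4% lower and 26.3% higher. This comparison shares the wild-type libraries with that of Dnmt-TKO. Ccnd3 was at -1.54, Mcm6 at -0.90, Mcm3 at -0.67 and Tk1 at -0.60 on the log2 scale of change, and Cdc20 at 0.54 and Cdk2 at 0.56. Chromosome 1, which holds Mcm6 and Mcm3, had a median log2 change of -0.42, beside -0.011 on other autosomes. Without Tet1-KO Dnmt-TKO replicate 2 the lower calls fell to 6, and without wild-type replicate 2 the higher calls fell to 2.

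In the wider lists, 8 of the 34 mitosis genes fell and none rose with loss of Tet1 by edgeR (1 rose at an unadjusted p under 0.05, and DESeq2 called 0), led by Nusap1, a spindle microtubule protein, at -0.54 (SE 0.101). The median log2 change of the 34 was -0.23, where 10.4% of all genes were called lower and 11.6% higher. With the replicate number as a block the 8 became 13, and with library size alone or the 2 groups fitted alone 15. The count ranged from 1 to 16 as single libraries were left out, with 1 without Dnmt-TKO replicate 2, 3 without Dnmt-TKO replicate 1 or Tet1-KO Dnmt-TKO replicate 1, 5 without Tet1-KO Dnmt-TKO replicate 2 and 16 without either wild-type library. Cdkn2a rose further, from 15.1 and 14.98 to 38.1 and 36.1 CPM (log2 change 1.30, SE 0.121, edgeR adjusted p = 3.59e-05), with no overlap between groups. Cdkn2b went from 3.33 and 3.0 to 6.39 and 5.47 CPM (log2 change 0.90, SE 0.208), a call lost without either Dnmt-TKO library or without Tet1-KO Dnmt-TKO replicate 1. Cdk6 rose by 0.77 (SE 0.148) on the log2 scale. Summed trophoblast markers went from 146 to 157 CPM in Dnmt-TKO to 509 to 698 CPM in Tet1-KO Dnmt-TKO libraries, with 8 of the 9 tested called higher. Summed endoderm markers went from 441 to 716 CPM to 816 to 1733 CPM, with 8 of the 9 tested called higher. Of the 10 embryonic stem cell markers 2 were higher and 1 lower (6347 to 6373 CPM, then 6855 to 7024 CPM), and of the 6 fibroblast markers tested 1 was higher and 3 lower (116 to 121 CPM, then 161 to 170 CPM). The part of these markers in the result was not tested.

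**Figure D4:**
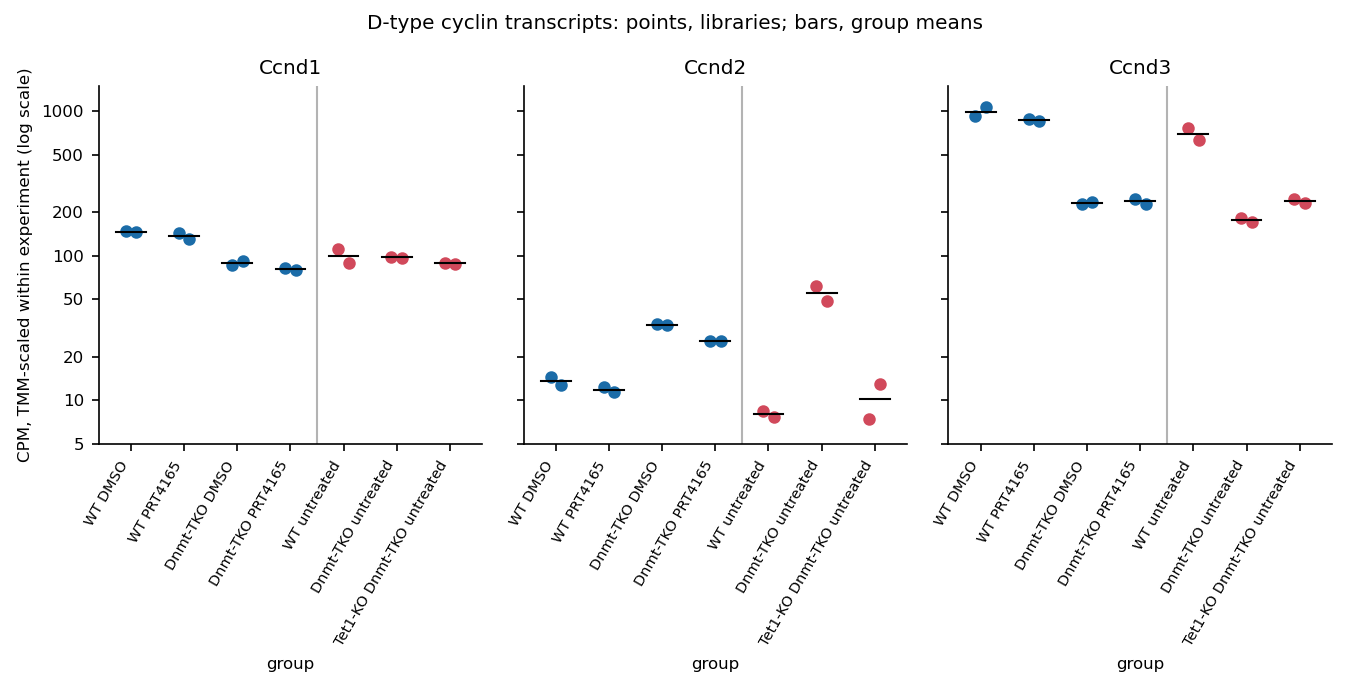
Points are libraries and bars group means of Ccnd1, Ccnd2 and Ccnd3 in CPM on a log scale; levels were scaled within each experiment, and the grey line separates the 2 experiments. Ccnd3 is lower in every Dnmt-TKO group than in its wild-type control, and Ccnd2 is raised in Dnmt-TKO and lower again in Tet1-KO Dnmt-TKO cells.

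The D-type cyclins can be ordered across groups within an experiment. In the first, Ccnd3 was highest in wild-type DMSO and wild-type PRT4165 and lower in both Dnmt-TKO groups, which overlapped each other. Ccnd2 in the same libraries ran from wild-type PRT4165 and wild-type DMSO, which did not overlap but were not called different, up to Dnmt-TKO PRT4165 and then Dnmt-TKO DMSO. In the second experiment Ccnd3 ran from wild type down to Tet1-KO Dnmt-TKO and Dnmt-TKO, and Ccnd2 from Dnmt-TKO down to the other two groups, which overlapped. Reads over shared exon stretches cannot be assigned for Ccnd3 and Bysl, whose own log2 change was 0.10 in DMSO and 0.51 untreated, nor for Ccnd1 and its neighbour LTO1. In all, 9 of the 32 genes overlap exons of another counted gene, Top2a on the same strand, Mcm7 on both and the others on the opposite strand. The same limit holds for Tk1 with Afmid, Cdc20 with Elovl1, Ccna2 with Exosc9, Cdc45 with Ufd1 and Mcm7 with Ap4m1 and Cops6. The partners' log2 changes in DMSO and untreated Dnmt-TKO cells were -1.34 and -1.16 for Afmid and 0.55 and 0.33 for Elovl1. They were -0.37 and -0.05 for Exosc9, 0.14 and 0.27 for Ufd1, -0.38 and -0.50 for Ap4m1 and 0.02 and -0.10 for Cops6. The part of shared reads was not tested. The share of 50-base words found in other genes as well reached 23.4% for Ccnb1, 23.3% for Mcm7, 21.6% for Ccnd1 and 19.1% for Pcna, so their counts are less certain than those of Mcm3, where no such word was shared.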

How the data were processed

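Poly(A) RNA libraries were made with a kit that does not mark strand and sequenced on an Illumina HiSeq instrument, per the labels' protocols. The authors deposited raw counts of reads per Ensembl gene ID in 2 tables, 1 per experiment, made with Bowtie 0.12.8, TopHat2 2.0.2 and HTSeq 0.5.3p9 on the mm9 build, per the submitters' processing notes. For the counting, neither the annotation release nor a strand setting is given in the sources used here, so overlapping genes on opposite strands and near-identical copies can share or lose reads. IDs were matched to symbols with GENCODE M21, for 32938 of 37991 IDs, and those without a symbol held 0.48% to 0.85% of counts. 1 column named with an extra letter B was taken as replicate 1 of the Tet1-KO Dnmt-TKO group.

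From the counts, genes with too few reads were removed (edgeR's filterByExpr, minimum count 10, minimum total 15), libraries were scaled by TMM, and all groups of an experiment were fitted together in edgeR 4.0.16 (R 4.3.3) with its quasi-likelihood F-test. P-values were adjusted over all genes tested (Benjamini-Hochberg), and SE is the log2 change over the square root of F. Levels are TMM-scaled CPM. 8 comparisons were planned, and 1 (the difference in genotype change between experiments, in a joint fit) was added after seeing the data. The procedure was tested on simulated counts. Library totals of 23354015 to 41844823 counts and 2 libraries per group set the precision. Alternatives were RLE factors, library size alone, DESeq2 1.42.0, no filter, a replicate block, the 2 groups compared alone, each library left out, and the count without genes on chromosomes 1 and 8. No label says that replicate numbers pair libraries, and the main fits carry no block. The correlation of replicate differences between groups ran from -0.036 to 0.054 in the first experiment and from 0.154 to 0.35 in the second, where same-numbered libraries deviated together, so blocked values are given where they change a count. Any of the 32 genes could be named, and of other lists up to 4 genes per direction with the smallest p, and every CDK inhibitor and Foxm1. The genes and lists were chosen with earlier results of these data known. Promoter and exon sequence came from RefSeq (GRCm38.p6) and GENCODE, not from the authors' build, and no coordinates of the counts are given.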

Additional observations from a re-analysis of the deposited data

Results flagged for a closer look

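These genes are set apart because a test of a difference between 2 groups' changes passed the threshold; none of the causes was tested. The response to PRT4165 differed between genotypes, as Dnmt-TKO minus wild type in log2 change, for Aurka by -0.27, for Cdk1 by -0.26 and for Ccne1 by 0.25. In each of these calls leaving out single libraries ended it, as given above.

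The genotype change was more positive untreated than in DMSO, on the log2 scale, by 1.51 for Ccnd2, 0.73 for Ccnd1, 0.55 for Ccne1 and 0.50 for Cdc20. It was more positive by 0.42 for Aurka, 0.37 for Mcm7, 0.35 for Rrm2, 0.34 for Mcm4, 0.32 for Mcm3 and 0.30 for Top2a. The first 4 kept their calls under every alternative run, and the other 6 lost them with library-size scaling. Aurka, Rrm2, Mcm4, Mcm3 and Top2a also lost theirs without any 1 of the wild-type DMSO libraries, the Dnmt-TKO DMSO libraries or untreated Dnmt-TKO replicate 1. Leaving out untreated Dnmt-TKO replicate 2 ended the calls of Aurka, Mcm3 and Top2a, and leaving out untreated wild-type replicate 2 those of Rrm2, Mcm4 and Mcm3. Over these libraries the edgeR adjusted p was 0.0535 to 0.0866 for Aurka, 0.0635 to 0.125 for Rrm2, 0.0576 to 0.155 for Mcm4, 0.0529 to 0.114 for Mcm3 and 0.0538 to 0.102 for Top2a.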

How the results depend on the processing

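Of 142 calls of single genes over the 9 comparisons, 90 held under every alternative and 52 were lost under at least 1. Signs turned in 4, all with library size alone: in Dnmt-TKO against wild type with DMSO, Bub1 to 0.047 and Rrm1 to 0.017; in Dnmt-TKO with PRT4165 against wild-type DMSO, Bub1 to 0.007 and Mcm7 to 0.045. Counts that moved by over 1.5 times, of the 32 genes called, were as follows. For Dnmt-TKO against wild type with DMSO, 5 higher became 9 with library size alone, 3 with no filter and 3 to 5 as single libraries were left out. With PRT4165 in wild type, 10 higher became 6 and in Dnmt-TKO 9 became 5 without the genes on chromosomes 1 and 8, by construction, and 9 lower in wild type became 5 to 9 as libraries were left out. For Dnmt-TKO with PRT4165 against wild-type DMSO, 5 higher became 9 with library size alone. For the interaction, 1 higher became 3 with RLE factors, 2 with library size alone, DESeq2 or no filter, and 0 to 4 as libraries were left out, and 2 lower became 0 to 3. As libraries were left out, Dnmt-TKO against wild type untreated gave 3 to 8 higher and 4 to 12 lower, Tet1-KO Dnmt-TKO against Dnmt-TKO 0 to 1 higher and 1 to 4 lower, and Tet1-KO Dnmt-TKO against wild type 2 to 4 higher and 6 to 14 lower. The difference in genotype change gave 4 more positive with library size alone and 5 to 16 as libraries were left out. Fits with 1 library in a group assume that it varies like the other groups, and the causes of these moves were not tested. With the replicate number as a block, the counts were the same in every comparison with such a fit except Tet1-KO Dnmt-TKO against Dnmt-TKO, with 4 lower in place of 3. Of the 34 other mitosis genes it called 13 lower there in place of 8. A limit set by depth was not tested; the common biological coefficient of variation, the spread between libraries of a group, was 3.73% in the first experiment and 10.5% in the second.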
